A study of Mus musculus with 44 samples.

Results

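DNA methylation is kept up and laid down in mouse embryonic stem (ES) cells by a small set of enzymes, and the homeobox gene Rhox5 is a well-known gene under its control. The genes described here are Dnmt1, Dnmt3a and Dnmt3b, which encode DNA methyltransferases, Uhrf1, which encodes the partner that brings Dnmt1 to newly copied DNA, and Rhox5. They were found by taking every probe set whose platform gene symbol is one of these 5 names. This gave 4 genes of 8251 and 6 probe sets of 12422: 101445_at and 161601_i_at for Dnmt1, 100479_at and 161170_r_at for Dnmt3a, 99564_at for Uhrf1 and 101368_at for Rhox5. Dnmt3b is not analysed here, because no probe set carries its name in the annotation used.

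Dnmt1 copies methyl groups onto the new DNA strand at CpG dinucleotides after replication. Uhrf1 binds CpG sites that carry the methyl group on the old strand only and recruits Dnmt1. Dnmt3a and Dnmt3b place methyl groups on DNA that had none. Rhox5, formerly called Pem, lies on the X chromosome in a cluster of reproductive homeobox genes. Its promoter is methylated in most somatic cells, and ES cells that lack DNA methyltransferases are known to express more of it.

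The RNA came from CGR8 mouse ES cells (the cgr8.8 clone), measured on 44 single-channel Affymetrix MG-U74Av2 arrays, and the series as a whole asked which genes the homeodomain protein Hex acts on. The groups were cells with Hex at the Rosa26 locus after recombination (4 arrays) and before it (4 arrays). Of the fusion HexERTVP2 at the same locus, clone 2 had 3 arrays in each of 4 states, namely recombined with 4-hydroxytamoxifen (4-OHT), recombined without it, unrecombined with it and unrecombined without it. In clone 1 those states had 4, 4, 3 and 5 arrays. Wild-type cells without an insert had 4 arrays. The name HexERTVP2 points to a fusion with an oestrogen receptor domain of the kind that 4-OHT binds, but the labels do not describe its parts. Each HexERTVP2 line is a single clone, so clone and line cannot be told apart. The labels do not tell whether the recombined cells of a line came from more than a single derivative. Recombination and other differences between recombined and unrecombined cells of a line therefore cannot be told apart. Another 4 arrays have titles that contradict themselves and were compared with nothing. Nothing in the labels tells whether arrays of 1 group are separate cultures, so the p-values cover the spread of these arrays, which may be technical.

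The deposited values are RMA intensities, here on the log2 scale, where a difference of 1 is a doubling. In the unrecombined Hex group, array 2 was unlike all others. Its mean correlation with the other assigned arrays was 0.869, against 0.978 to 0.990 for the other 39, and its log2 values spread less (SD 1.60, against 1.79 to 1.98). Results are therefore given from all 40 arrays and, where a call differed or a value moved with it, without that array as well. All tests were limma fits over the 11 groups with p-values adjusted over 12422 probe sets, called at 0.05. The β-actin 3′/5′ log2 ratio, which reads RNA and labelling quality, ran from 0.56 to 2.34 over those 39 arrays and was 2.24 on array 2. In RNA from bulk cells, fewer cells that express a gene and less of its RNA per cell cannot be told apart.

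The ES cell identity of the samples was checked on 10 markers (Pou5f1, Sox2, Nanog and others). Their mean log2 intensity lay between 9.86 and 10.40 on the other 39 arrays and was 9.24 on array 2. Rhox5 is also known from extraembryonic cells, so markers of those were read as well. The mean of 12 primitive and parietal endoderm markers lay between 6.94 and 7.40, that of 8 trophoblast markers between 5.89 and 6.44, and that of 10 fibroblast markers between 6.22 and 7.15. Without array 2 the trophoblast mean reached no higher than 6.10 and the fibroblast mean no higher than 6.60. RMA gives every probe set a value above 0, so no marker was at 0.

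The promoters of Rhox5, Dnmt1 and Uhrf1 are shown because CpG is the site type that DNA methyltransferases act on, and these promoters differ in how many they hold. The windows are from RefSeq (GRCm38.p6), run from 250 bases before to 50 bases after an annotated start, and are written 5′ to 3′ on the strand of the gene with each CpG in capitals. All 5 genes matched the table. The arrays measured RNA only, and no methylation was read.
Rhox5, chrX:37754358-37754657, plus strand: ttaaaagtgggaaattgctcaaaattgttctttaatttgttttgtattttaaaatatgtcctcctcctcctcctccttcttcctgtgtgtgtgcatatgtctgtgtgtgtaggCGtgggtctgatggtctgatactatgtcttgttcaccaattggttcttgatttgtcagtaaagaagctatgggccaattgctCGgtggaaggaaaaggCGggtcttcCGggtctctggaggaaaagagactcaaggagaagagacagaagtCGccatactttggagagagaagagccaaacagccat
Dnmt1, chr9:20952574-20952873, minus strand: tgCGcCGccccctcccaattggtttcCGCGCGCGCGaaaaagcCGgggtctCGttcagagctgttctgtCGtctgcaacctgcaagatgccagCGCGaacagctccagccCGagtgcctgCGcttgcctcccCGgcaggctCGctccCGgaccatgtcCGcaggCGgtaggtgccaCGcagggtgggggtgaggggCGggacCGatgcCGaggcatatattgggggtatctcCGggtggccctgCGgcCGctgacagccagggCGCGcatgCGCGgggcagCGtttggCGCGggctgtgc
Uhrf1, chr17:56304063-56304362, plus strand: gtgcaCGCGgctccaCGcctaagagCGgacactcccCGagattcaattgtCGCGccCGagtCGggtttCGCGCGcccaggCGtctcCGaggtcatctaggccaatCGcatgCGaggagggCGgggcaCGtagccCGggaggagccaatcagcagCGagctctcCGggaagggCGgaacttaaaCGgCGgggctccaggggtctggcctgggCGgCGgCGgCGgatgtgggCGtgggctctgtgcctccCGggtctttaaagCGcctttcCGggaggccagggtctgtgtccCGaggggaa
The Rhox5 window holds 5 CpG, against 33 in each of the other windows and a median of 7 over 32851 such windows. Its CpG lie 137, 55, 39 and 30 bases before the start and, for the last, after it. It has a GC content of 43.7%, and 38.0% of all windows hold fewer CpG. The CpG at 30 bases before the start lies inside a match to the ETS word CCGGAAG, which reads on the opposite strand and is found in 8.86% of windows on either strand. The Dnmt1 window holds 2 matches to an E2F word (TTTCCCGC, TTTCGCGC, TTTGCCGC or TTTGGCGC, either strand) and the Uhrf1 window holds 1, against 2.26% of windows with any. CCAAT, searched on both strands, is in all 3 windows and in 37.4% of all windows. Dnmt1 has 2 further windows in the table, with 12 and 2 CpG, and Uhrf1 has another with 12. Dnmt3a has 3, with 46, 47 and 18 CpG. A match to a word is a description of the letters and not a measured binding site. The probe sets do not tell the starts of a gene apart.

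Rhox5 differed between the lines far more than the genes of the methylation machinery did. Its level was lowest in unrecombined HexERTVP2 clone 2, higher in recombined clone 2 and in the Hex line, higher again in clone 1, and highest in wild-type cells. The group means spanned 1.92 on the log2 scale, a 3.78-fold range. The SD of its 11 group means was 0.60, which ranked 16 of 12422 probe sets, where the median probe set had 0.10. Within groups its SD was 0.26 (0.12 without array 2).

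In the Hex line, recombined cells read 7.99, 8.03, 7.94 and 8.02 for Rhox5. Unrecombined Hex cells read 8.39, 6.94, 8.41 and 8.29, the low value being array 2. Wild-type cells read 9.13, 9.31, 9.11 and 9.22. No Hex array of either state reached the lowest wild-type array. In clone 2, recombined cells read 7.83, 7.93 and 8.06 with 4-OHT and 8.02, 7.87 and 8.04 without it. Unrecombined clone 2 read 7.25, 7.32 and 7.25 with 4-OHT and 7.56, 7.28 and 7.28 without it. All 6 recombined arrays of clone 2 were above all 6 unrecombined ones. In clone 1, recombined cells read 8.60, 8.74, 8.54 and 8.44 with 4-OHT and 8.35, 8.53, 8.82 and 8.78 without it. Unrecombined clone 1 read 8.82, 8.67 and 8.52 with 4-OHT and 8.74, 8.65, 8.82, 8.94 and 8.71 without it. The 4 states of clone 1 overlapped, and all its arrays lay above those of clone 2.

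**Figure D1:**
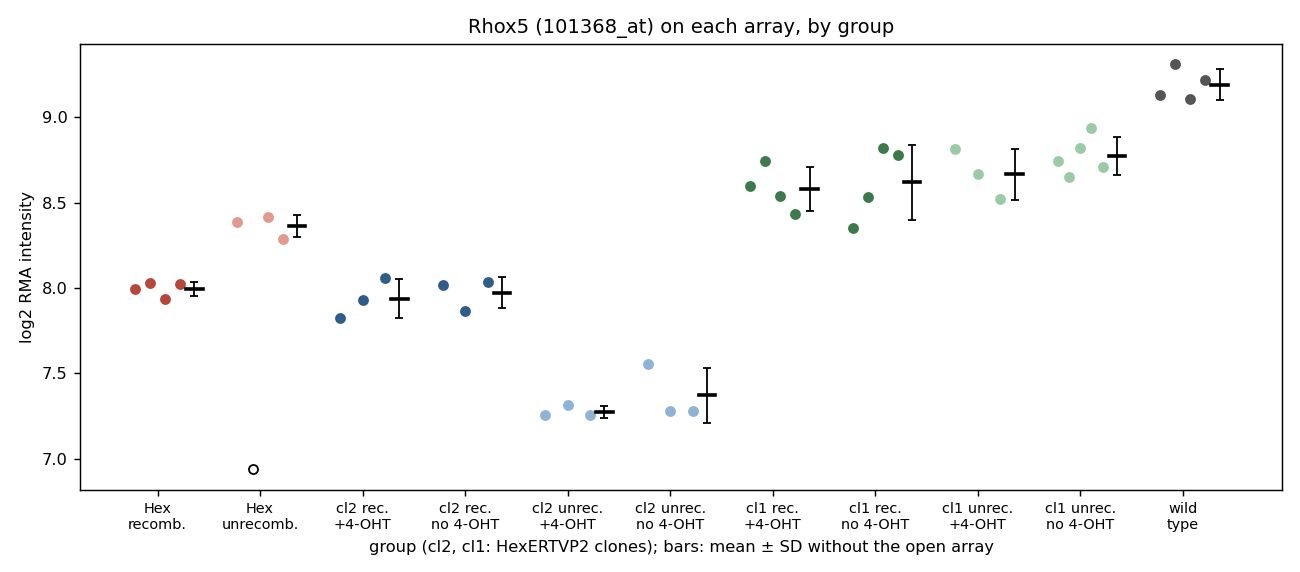
Rhox5 on each array: the y axis is the log2 RMA intensity of 101368_at and the x axis the 11 groups; points are arrays, black bars are group means ± SD without the open point, which is array 2 of unrecombined Hex. Clone 2 lies below clone 1 in every state, its unrecombined arrays lie lowest (7.25 to 7.56), and wild type lies highest (9.11 to 9.31).

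In the order of the group means, only 3 steps between neighbours had arrays that did not overlap. Unrecombined clone 1 without 4-OHT (8.77 ± 0.11, SD, n = 5) stood 0.42 below wild type (9.19 ± 0.09, n = 4). Recombined clone 1 with 4-OHT (8.58 ± 0.13, n = 4) stood 0.57 above unrecombined Hex (8.01 ± 0.71, n = 4), and recombined clone 2 with 4-OHT (7.94 ± 0.12, n = 3) stood 0.57 above unrecombined clone 2 without it (7.37 ± 0.16, n = 3). The other neighbours overlapped and did not differ beyond their spread. Without array 2 the mean of unrecombined Hex was 8.36 ± 0.07 (n = 3), and its arrays then lay above those of recombined Hex.

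The test of any difference among the 11 groups asked whether a gene varied at all with line, recombination or 4-OHT. Rhox5 passed (F = 19.9, adjusted p = 2.04e-08) and ranked 24 of 12422 probe sets. It was the only call among the 6 probe sets, where 5.17% of all probe sets were called. Without array 2, Rhox5 ranked 5 (F = 77.9, adjusted p = 2.69e-16) and Dnmt3a passed too (F = 7.24, adjusted p = 2.51e-04), against 12.9% of all probe sets. Dnmt1 (101445_at, adjusted p = 0.972, or 0.113 without array 2) and Uhrf1 (0.972, or 0.0849) did not pass in either fit.

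**Figure D2:**
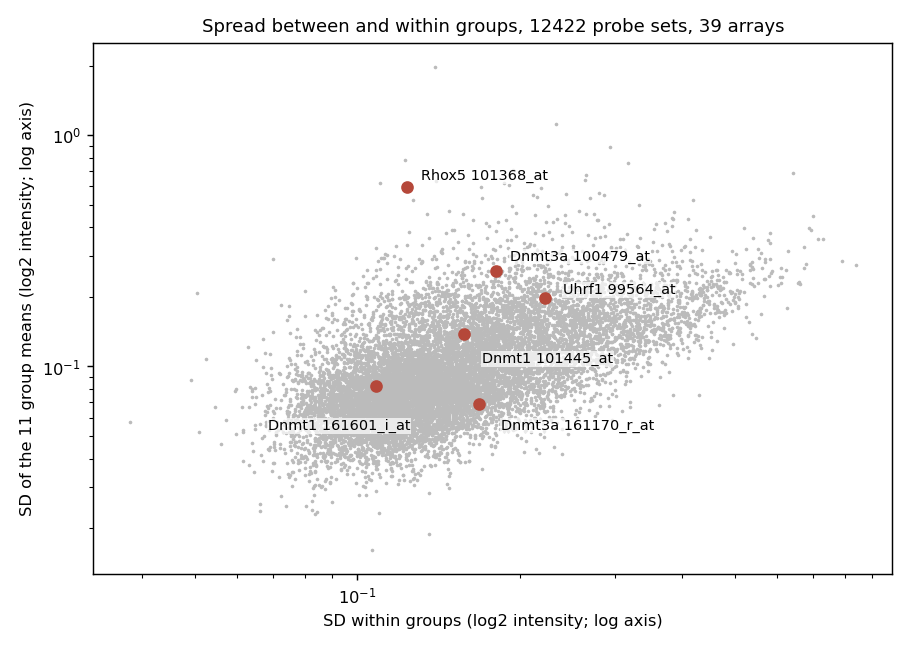
Spread of every probe set without array 2: the x axis is the SD within groups and the y axis the SD of the 11 group means, both of log2 intensity on log axes; grey points are the 12422 probe sets and red points the 6 of Dnmt1, Dnmt3a, Uhrf1 and Rhox5. Rhox5 sits at 0.60 between groups and 0.12 within them, while Dnmt1 (101445_at) sits at 0.14 and 0.16.

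Comparisons with wild type asked whether the engineered lines had left the level of the parent cells. They share the 4 wild-type arrays, so they are not independent of each other. Recombined Hex cells had less Rhox5 than wild type by 1.20 on the log2 scale (log2 change -1.20, SE 0.18, 2.29-fold lower, adjusted p = 1.49e-04), the only call among the 6 probe sets, where 0.266% of all probe sets were called (1.37% without array 2). Unrecombined Hex cells also had less (log2 change -1.18, SE 0.18, adjusted p = 3.87e-05), again the only call, where 4.82% were called. Without array 2 that change was -0.83 (SE 0.10, adjusted p = 3.70e-07, 3.63% called). With only these 2 groups in the fit, the call was lost (adjusted p = 0.336). Unrecombined clone 2 without 4-OHT fell furthest (log2 change -1.82, SE 0.19, 3.53-fold lower, adjusted p = 1.42e-07), the only call of 6 beside 6.79% of all probe sets, or 25.4% without array 2. Unrecombined clone 1 without 4-OHT was at -0.42 (SE 0.17) and did not pass (adjusted p = 0.831, 0 of 6 called, 1 at an unadjusted p below 0.05). It passed without array 2 (SE 0.08, adjusted p = 0.00491, 1 of 6 called). In that comparison 0.298% of all probe sets were called, and 1.14% without array 2.

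Clone 2 against clone 1, averaged over their 4 states, asked how far a pair of lines with the same insert differ. Over its 12 arrays clone 2 ran from 7.25 to 8.06 with a median of 7.69, and over its 16 arrays clone 1 ran from 8.35 to 8.94 with a median of 8.69. Rhox5 was lower in clone 2 (log2 change -1.02, SE 0.10, 2.03-fold lower, adjusted p = 6.68e-09). It was the only call of 6 beside 1.22% of all probe sets, and 3.25% without array 2. The β-actin ratio differed by -0.005 between the clones in this comparison. With a term for that ratio the change was -1.02 as well (adjusted p = 4.96e-09). Dnmt1 (0.04, 95% interval -0.14 to 0.22), Dnmt3a (-0.03, -0.24 to 0.19) and Uhrf1 (-0.09, -0.37 to 0.19) were not called.

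Recombination at the insert was compared in each HexERTVP2 clone. Rhox5 was higher in the recombined state of clone 2, a call that needed array 2 left out, and passed in neither fit in clone 1. Without 4-OHT, recombined against unrecombined clone 2 differed by 0.60 (7.97 ± 0.09 in recombined cells and 7.37 ± 0.16 in unrecombined cells, SD, n = 3 each). This missed the threshold with all arrays (SE 0.21, adjusted p = 0.25, 0.322% of probe sets called) and passed without array 2, which belongs to neither group but widens the shared spread (SE 0.10, adjusted p = 6.89e-04, 4.17% called). With 4-OHT the difference was 0.66 (7.94 ± 0.12 in recombined cells and 7.27 ± 0.04 in unrecombined cells, n = 3 each), with an adjusted p of 0.606 (0.105% called) and of 3.59e-04 without array 2 (0.322% called). In clone 1 the same differences were -0.15 (95% interval -0.50 to 0.19) and -0.09 (-0.48 to 0.30), and neither passed in either fit (0.547% and 0.209% called, and 1.32% and 0.588% without array 2).

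The difference between the clones in the response to recombination without 4-OHT, tested directly, was 0.75 for Rhox5 (SE 0.27, clone 2 minus clone 1). It did not pass with all arrays (adjusted p = 0.413, 0 of 6 called beside 0.29% of all probe sets, 2 of 6 at an unadjusted p below 0.05) and passed without array 2 (SE 0.13, adjusted p = 0.00114, 1 of 6 beside 1.35%). Averaged over the clones, recombination gave 0.22 without 4-OHT (SE 0.13, adjusted p = 0.572, 0 of 6 called beside 0.467%, 0 at an unadjusted p below 0.05), and an adjusted p of 0.0527 without array 2 (0 of 6 called beside 3.38%, 1 at an unadjusted p below 0.05). With 4-OHT it gave 0.29 (SE 0.14, 0 of 6 called beside 0.185%, 1 at an unadjusted p below 0.05), which passed without array 2 (adjusted p = 0.0484, 1 of 6 beside 0.523%). The β-actin ratio was higher in recombined cells by 0.30 in clone 2 and 0.57 in clone 1 without 4-OHT. With 4-OHT it differed by 0.35 in clone 2 and by -0.19 in clone 1. With a term for this ratio and without array 2, the difference between clones was 0.78 (adjusted p = 1.70e-04).

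In the Hex line the comparison of recombined with unrecombined cells gave -0.01 for Rhox5 (SE 0.18, adjusted p = 0.981), and 0 of 6 probe sets were called beside 3.37% of all, with 1 at an unadjusted p below 0.05. This value rested on array 2. Without it the change was -0.37 (SE 0.10, adjusted p = 0.0146), so that Rhox5 fell, and Dnmt3a fell by 0.51 (SE 0.13, adjusted p = 0.016), which made 2 of 6 called beside 6.26%. The direction for Rhox5 is the opposite of that in clone 2, although the labels call both steps recombination. The β-actin ratio was lower in recombined Hex cells by 0.34 (log2 difference -0.34), and -0.09 without array 2.

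The drug 4-OHT, which releases an oestrogen receptor fusion into the nucleus, moved none of the 6 probe sets past the threshold by limma. In recombined cells Rhox5 changed by -0.04 (95% interval -0.31 to 0.24), Dnmt1 by 0.06 (-0.19 to 0.31), Dnmt3a by -0.06 (-0.37 to 0.24) and Uhrf1 by -0.03 (-0.42 to 0.36), with 0.0322% of all probe sets called. In unrecombined cells Rhox5 changed by -0.10 (-0.38 to 0.18), with 0% called. The interaction of 4-OHT with recombination was 0.06 for Rhox5 (-0.33 to 0.46, 0.0161% called), and the difference between clones in the response of recombined cells was 0.01 (-0.55 to 0.56, 0% called). In each of these 4 comparisons 0 of 6 had an unadjusted p below 0.05. Without array 2 there were again 0 calls, beside 0.145%, 0%, 0.0644% and 0% of all probe sets, and at an unadjusted p below 0.05 Uhrf1 alone stood out in the clone difference (-0.61, 95% interval -1.08 to -0.14).

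**Figure D3:**
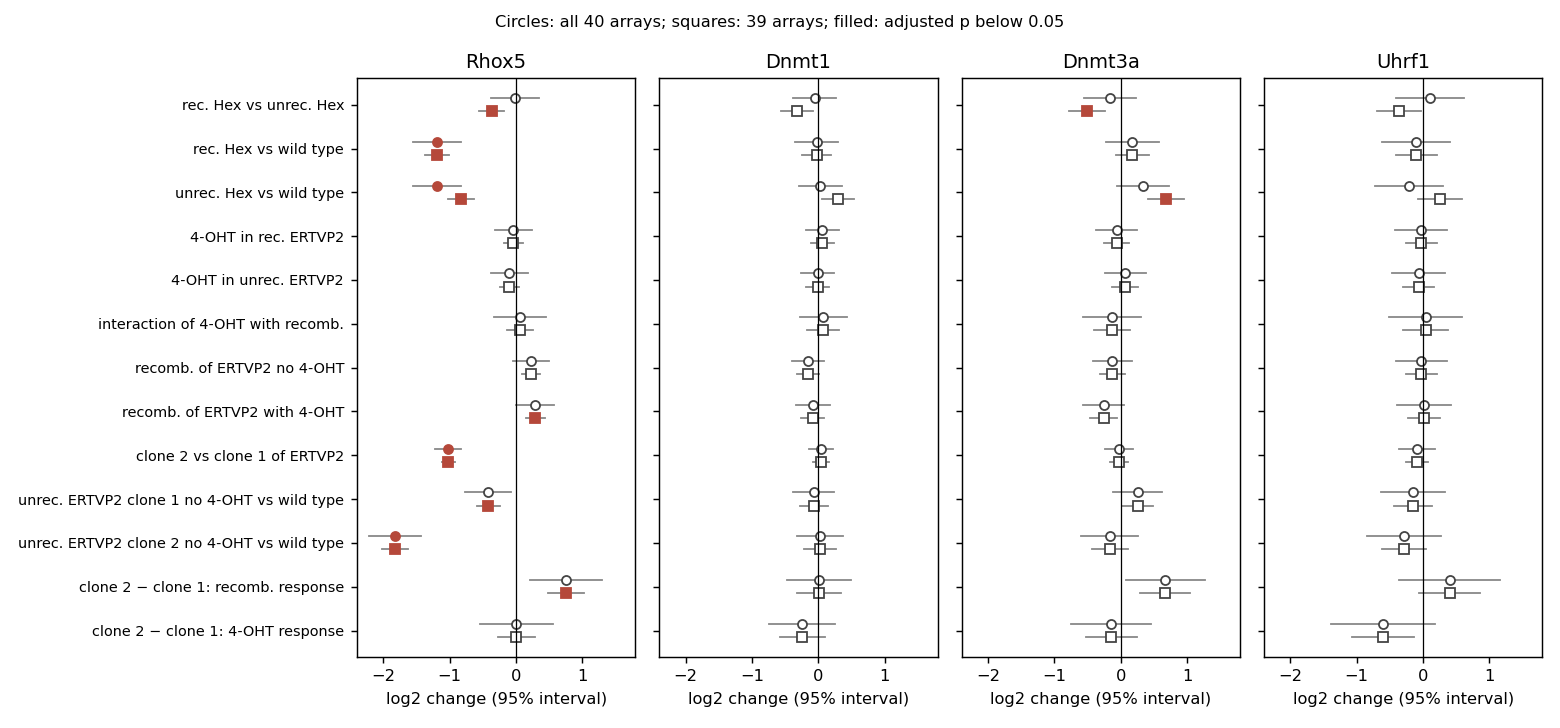
Log2 changes of Rhox5, Dnmt1, Dnmt3a and Uhrf1 in the 13 comparisons: the x axis is the log2 change with its 95% interval and the rows are comparisons (rec. and unrec. for recombined and unrecombined, ERTVP2 for HexERTVP2); circles use all 40 arrays, squares leave out array 2 of unrecombined Hex, and filled symbols passed. Rhox5 lies at -1.82 in unrecombined clone 2 against wild type and at -1.02 between the clones, whereas all Dnmt1 and Uhrf1 symbols are open.

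Dnmt1, the maintenance enzyme, was bright: 89.3% of probe sets were dimmer than 101445_at, whose mean log2 intensity was 9.15. Recombined Hex cells read 9.21, 9.39, 8.85 and 9.31, against 9.53, 8.43, 9.62 and 9.39 in unrecombined Hex cells. Wild-type cells read 9.23, 9.10, 9.36 and 9.17. The low value was again array 2, and the other 3 unrecombined Hex arrays lay above all 4 wild-type arrays, while recombined Hex overlapped with wild type. Clone 2 ran from 8.84 to 9.37 over 12 arrays (median 9.16) and clone 1 from 8.84 to 9.41 over 16 arrays (median 9.09). The group means lay within 0.26 of each other (0.53 without array 2). No comparison called Dnmt1 with all 40 arrays or with the other 39. With a β-actin term and without array 2 it was lower in recombined than in unrecombined Hex cells (-0.35, adjusted p = 0.00125) and higher in unrecombined Hex than in wild type (0.31, adjusted p = 0.00593). The share of all probe sets called in fits with a β-actin term is not given here for any gene. The dimmer probe set 161601_i_at (mean 7.05), built of fewer probes than the design asks for, was not called in any comparison by either fit. It read 5.63 on array 2 and between 6.74 and 7.30 elsewhere.

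Uhrf1 was measured by 99564_at at a mean of 8.76, with 85.3% of probe sets dimmer. Recombined Hex cells read 8.82, 9.18, 8.59 and 8.85, against 9.21, 7.35, 9.46 and 8.99 in unrecombined Hex cells. Wild-type cells read 8.81, 9.03, 9.06 and 8.95. Clone 2 ran from 8.20 to 9.02 (median 8.66, 12 arrays) and clone 1 from 8.35 to 9.17 (median 8.77, 16 arrays). Both clones overlapped with wild type, and no comparison called Uhrf1 in either fit. Between recombined and unrecombined Hex cells its change was 0.11 with all arrays and -0.36 without array 2, so that 1 array turned its direction. With a β-actin term and without array 2, Uhrf1 was lower in recombined Hex cells (-0.40, adjusted p = 0.00325) and in unrecombined clone 2 against wild type (-0.43, adjusted p = 0.00113).

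Dnmt3a, the de novo enzyme, was measured by 100479_at at a mean of 8.53, with 82.5% of probe sets dimmer. Recombined Hex cells ran from 8.31 to 8.91 over 4 arrays, against 9.18, 7.78, 9.27 and 9.07 in unrecombined Hex cells. Wild-type cells read 8.37, 8.50, 8.57 and 8.51. Apart from array 2, unrecombined Hex cells held the highest Dnmt3a levels of all groups (9.17 ± 0.10, SD, n = 3), above every array of recombined Hex and of wild type. In clone 1, recombined cells read 8.09, 8.44, 8.38 and 8.24 with 4-OHT and 8.03, 8.57, 8.18 and 8.33 without it. Unrecombined clone 1 read 8.70, 8.83 and 8.36 with 4-OHT and 8.68, 8.74, 8.75, 8.77 and 8.76 without it. Without 4-OHT the clone 1 states did not overlap. Clone 2 ran from 8.13 to 8.73 with a median of 8.45 over 12 arrays.

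With all 40 arrays no comparison called Dnmt3a. Without array 2 it was higher in unrecombined Hex than in wild type (log2 change 0.68, SE 0.13, adjusted p = 0.00132). With Rhox5 this made 2 of 6 called beside 3.63% of all probe sets. In that fit Dnmt3a was also lower in recombined than in unrecombined clone 1 without 4-OHT (-0.46, SE 0.12, adjusted p = 0.034, 1.32% called). With all arrays its adjusted p there was 0.623 (0.547% called). In clone 2 that change was 0.21 (95% interval -0.08 to 0.50 without array 2). The difference between clones in this response was 0.67 (adjusted p = 0.606, or 0.061 without array 2), and 0.60 without array 2 and with a β-actin term (adjusted p = 0.0127). The second Dnmt3a probe set, 161170_r_at, was at 3.33 with only 1.40% of probe sets dimmer, and passed in no comparison by either fit.

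**Figure D4:**
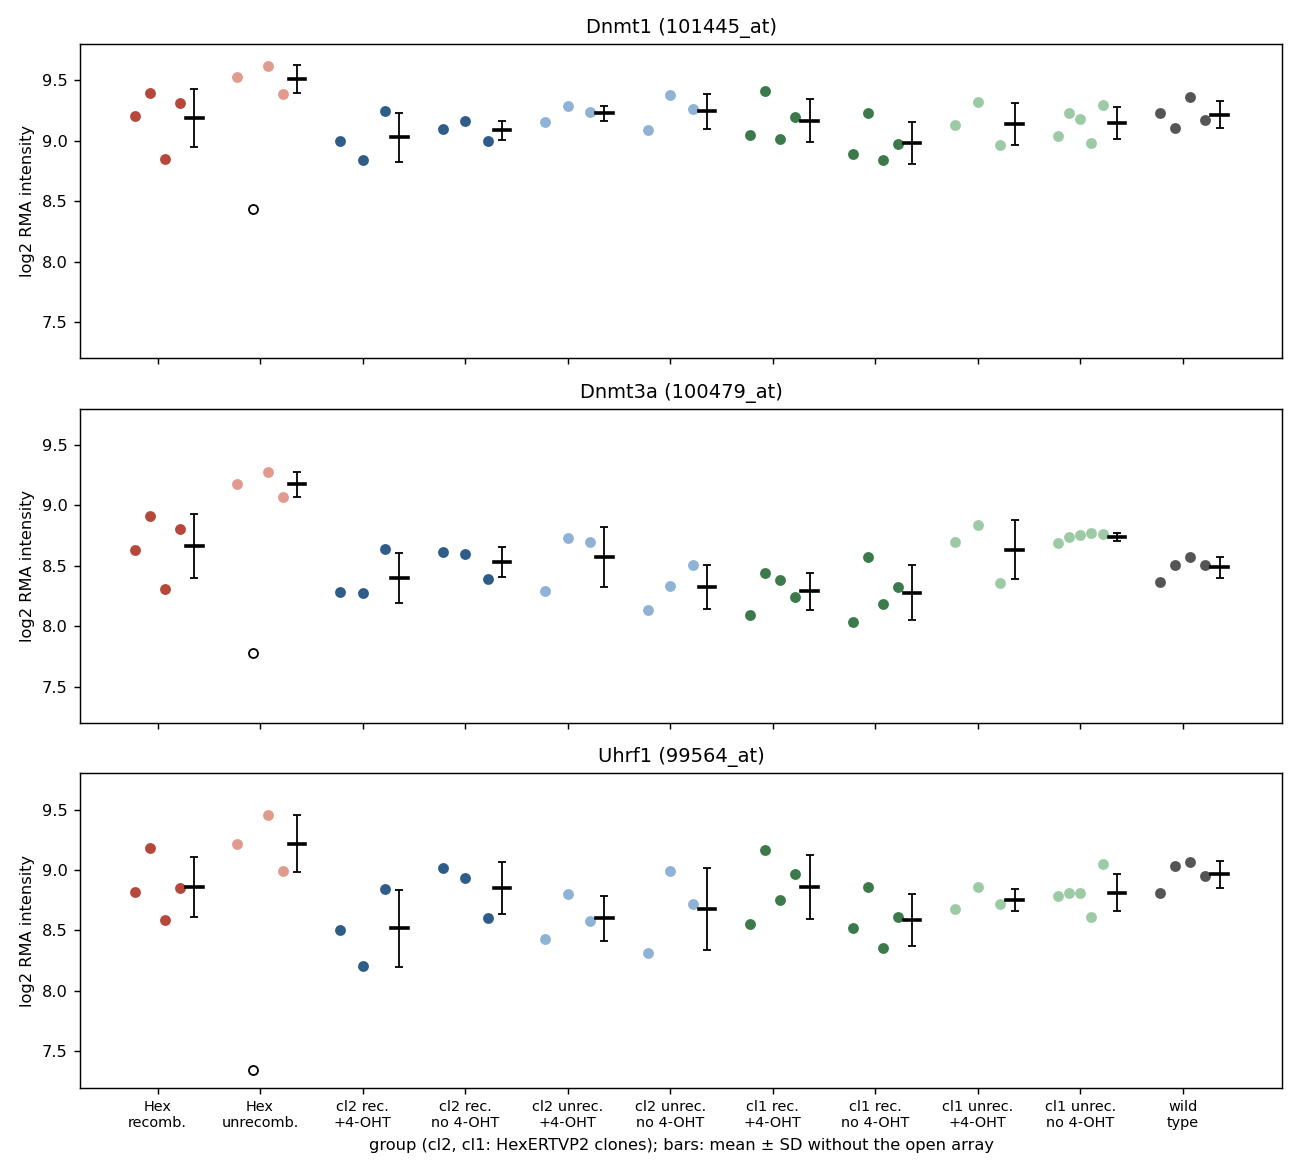
Dnmt1, Dnmt3a and Uhrf1 on each array: the y axes are log2 RMA intensities on 1 common scale and the x axis the 11 groups; points are arrays, black bars are group means ± SD without the open point, array 2 of unrecombined Hex. Without the open point the group means of Dnmt1 lie within 0.53 and those of Uhrf1 within 0.70 of each other, and Dnmt3a is highest in the other 3 unrecombined Hex arrays (9.07 to 9.27).

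The enzymes and their partner moved together between arrays of a group, whether or not array 2 was counted, while Rhox5 moved with them only when it was. After each group mean was taken off, Dnmt1 correlated with Uhrf1 at r = 0.934 over the 40 arrays and 0.844 over the 39 without array 2. The correlation of Dnmt1 with Dnmt3a was 0.906 over 40 and 0.777 over 39 arrays, and that of Dnmt3a with Uhrf1 was 0.900 and 0.728. Rhox5 correlated with Dnmt1 at 0.654 over 40 arrays and -0.018 over 39, with Dnmt3a at 0.759 and 0.229, and with Uhrf1 at 0.690 and -0.089. A single array therefore carried these 3 values. The β-actin ratio ran against Dnmt1 (-0.779 over 40 arrays, -0.829 over 39), Dnmt3a (-0.650 and -0.645) and Uhrf1 (-0.748 and -0.843), and its correlation with Rhox5 turned sign (-0.161 and 0.340). The part of RNA quality in the shared movement of the enzymes was not tested. Over the 11 group means, Rhox5 correlated with Dnmt1 at -0.256 (-0.086 without array 2), with Dnmt3a at 0.009 (0.102) and with Uhrf1 at 0.527 (0.415). These are descriptions over arrays that share groups and processing.

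Other genes of the methylation pathway were read from lists. Among 17 measured writers and partners, which include Polycomb and heterochromatin proteins, Cbx5 (a heterochromatin protein) fell in recombined against unrecombined Hex (-0.26, adjusted p = 0.0388), 1 of 17 beside 3.37% of all probe sets. Suz12 (a Polycomb subunit) fell in unrecombined Hex against wild type (-0.85, adjusted p = 0.0224), 1 of 17 beside 4.82%. The list medians were 0.01 and -0.11 there, beside 0.01 and 0.03 over all probe sets, and the list had 0 calls in the other 11 comparisons with all arrays. Without array 2 the first of these comparisons had 4 of 17 lower and 0 higher, beside 6.26% of all probe sets, among them Eed (-0.70) and Hdac2 (-0.45). In that fit the second had Cbx5 higher (0.25, 1 of 17 beside 3.63%) and Suz12 was not called. Recombination without 4-OHT had 3 of 17 higher, beside 3.38%. Unrecombined clone 2 against wild type had 6 lower and 1 higher, beside 25.4%, among them Hdac2 (-0.46) and Ezh2 (-0.49).

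The 11 measured methyl-CpG readers and demethylation genes had 0 calls in every comparison with all arrays. The same held for the 10 genes listed with the methyl donor and folate cycle, and for the 8 germ line genes known for promoter methylation. The values that follow are from the fit without array 2. The stress genes Gadd45a and Gadd45g, both linked to demethylation, went opposite ways. In unrecombined clone 2 against wild type, Gadd45a was lower (-0.62) and Gadd45g higher (0.51), and with Mbd4 lower (-0.27) this made 3 of 11 called beside 25.4% of all probe sets. After recombination without 4-OHT, Gadd45a was higher (0.28) and Gadd45g lower (-0.46), 2 of 11 beside 3.38%. Gadd45g was also higher in unrecombined Hex than in wild type (0.75, 1 of 11 beside 3.63%) and lower in recombined than in unrecombined Hex (-0.60), where Mbd2 (-0.35) and Mbd1 (-0.33) were lower too, 3 of 11 beside 6.26%. Gadd45a was the 1 of 11 called in 3 further comparisons. It was lower in recombined Hex than in wild type (-0.42, beside 1.37% of all probe sets). Its level was also lower in clone 2 than in clone 1 (-0.20, beside 3.25%) and higher after recombination with 4-OHT (0.36, beside 0.523%).

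The methyl donor list also held genes outside that cycle, among them Odc1 (polyamine synthesis) and Ahcyl1 (a relative of Ahcy). Odc1 was lower in recombined than in unrecombined Hex (-0.65, 1 of 10 beside 6.26%). Ahcyl1 was lower than wild type in recombined Hex (-0.39, 1 of 10 beside 1.37%) and, with Mthfd2 (-0.22), in unrecombined clone 2 (-0.44, 2 of 10 beside 25.4%), again without array 2. Of the 8 germ line genes, Rhox6, a homeobox gene of the same X-linked cluster as Rhox5, was lower than wild type in unrecombined Hex (-0.60), unrecombined clone 1 (-0.54) and unrecombined clone 2 (-0.37) in that fit. Other members went the other way: Stra8, a gene of meiosis onset, was higher in unrecombined Hex than in wild type (0.48), and the germ cell gene Dazl was higher in unrecombined clone 2 (0.33). This made 1 lower and 1 higher of 8 in unrecombined Hex (beside 3.63% of all probe sets), 1 lower in clone 1 (1.14%) and 1 lower and 1 higher in clone 2 (25.4%). Stra8 was also lower in recombined than in unrecombined Hex cells (-0.49, 1 of 8 beside 6.26%). Of those 8 genes, 1 had a mean above the array median, so low signal limits what this list can show.

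The 21 S phase genes are commonly expressed together with Dnmt1 and Uhrf1. With all arrays Cdc6 fell (-0.89) and E2f1 rose (0.47) in unrecombined Hex against wild type, 2 of 21 beside 4.82% of all probe sets, and 0 of 21 were called in the other 12 comparisons. Without array 2 Cdc6 was still called, at a smaller change (-0.42, adjusted p = 0.0343), and E2f1 was not called, 1 of 21 beside 3.63%. In that fit Gmnn (-0.55) and Pola1 (-0.51) were lower in recombined than in unrecombined Hex, 2 of 21 beside 6.26%. Gmnn (-0.54), Cdc6 (-0.45) and Prim1 (-0.58) were lower and Mcm6 (0.41) higher in unrecombined clone 2 than in wild type, 4 of 21 beside 25.4%.

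The last list held regulators of naive and formative pluripotency, states that are known to differ in DNA methylation. With all arrays, 5 of 10 passed the test over the 11 groups, beside 5.17% of all probe sets, and 7 of 10 without array 2, beside 12.9%. Dppa3, known to keep DNA from being methylated in early embryos and germ cells, was lower than wild type in unrecombined clone 2 (-1.50, adjusted p = 7.00e-06) and in unrecombined clone 1 (-0.84, adjusted p = 0.014). Its group means in clone 2 were 7.89 and 7.84 after recombination with and without 4-OHT, against 7.07 and 6.99 before it. Nanog (-0.86) and Klf4 (-0.94) were also lower in unrecombined clone 2 than in wild type, 3 of 10 beside 6.79%, or 5 lower and 1 higher without array 2 beside 25.4%. In recombined against unrecombined HexERTVP2 cells with 4-OHT, Nr0b1 rose (1.08, adjusted p = 8.97e-05) and Klf2 fell (-0.37, adjusted p = 0.0335), 2 of 10 beside 0.185%, or 3 higher and 1 lower without array 2 beside 0.523%. Without array 2, 5 of 10 also rose after recombination without 4-OHT, beside 3.38%, among them Dppa3 (0.55). In recombined against unrecombined Hex, 4 of 10 rose and 0 fell beside 3.37% of all probe sets, among them Dppa3 (1.78) and Nanog (0.65). Without array 2, 4 rose and 1 fell beside 6.26%, with Dppa3 at 1.45 and Nanog at 0.43. Rhox5 went the other way in that comparison and fit (-0.37), unlike in clone 2. In unrecombined Hex against wild type 5 fell and 0 rose beside 4.82%, among them Dppa3 (-2.17). Without array 2 only 2 fell beside 3.63%, Dppa3 (-1.84) and Nanog (-0.75). The list had a median of -0.26 in unrecombined clone 2 against wild type, beside 0.07 over all probe sets.

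Markers of primitive and parietal endoderm differed in clone 2 and in the Hex line, where Rhox5 differed too. Their list mean was 7.25 to 7.40 on the 6 unrecombined clone 2 arrays, where Rhox5 was lowest, and 6.94 to 7.24 on all other arrays. Unrecombined Hex went the other way. Without array 2 its list mean was 6.94 to 6.97, below wild type (6.98 to 7.08), although its Rhox5 was also lower than in wild type. Col4a1 (1.37), Lama1 (0.57) and Sox17 (0.43) rose in unrecombined clone 2 against wild type with all arrays, 3 of 12 beside 6.79% of all probe sets. Without array 2, 5 rose and 1 fell, beside 25.4%. The response to recombination was lower in clone 2 than in clone 1 for Col4a1 (-2.20, adjusted p = 9.26e-06) and Lama1 (-0.98, adjusted p = 0.0194), 2 of 12 beside 0.29%. In recombined against unrecombined Hex, Col4a1 rose (1.10, adjusted p = 2.32e-04, or 8.33e-04 without array 2), 1 of 12 beside 3.37%. In unrecombined Hex against wild type, Sparc fell (-0.81, adjusted p = 0.00332, or -0.62 without array 2), 1 of 12 beside 4.82%.

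Of 8 trophoblast markers, with all arrays, Ascl2 rose in unrecombined clone 2 against wild type (0.35, adjusted p = 0.0195), beside 6.79% of all probe sets. Without array 2 Plac1 rose as well (0.22, adjusted p = 0.0413), beside 25.4%. Of 10 fibroblast markers, without array 2, Col1a1 passed the test over the 11 groups (adjusted p = 0.00902), beside 12.9%. In unrecombined clone 2 against wild type Vim rose in that fit (0.35, adjusted p = 0.00978), beside 25.4%. Of 10 ES cell markers, with all arrays, Nanog fell in that comparison, beside 6.79%. Without array 2, Fbxo15 (-0.69) and Fgf4 (-0.27) fell as well and Esrrb rose (0.31), beside 25.4%. Other lines had calls too. In unrecombined Hex against wild type Nanog (-0.97) and Zfp42 (-0.75) fell with all arrays, beside 4.82%. Without array 2 Nanog fell (-0.75) and Fgf4 rose (0.50) there, beside 3.63%. In unrecombined clone 1 against wild type Fgf4 (-0.48) and Fbxo15 (-0.39) fell without array 2, beside 1.14%. With all arrays Nanog rose in recombined against unrecombined Hex (0.65), beside 3.37%. Without array 2 Nanog rose (0.43) and Dppa5a (-0.38) and Fgf4 (-0.39) fell there, beside 6.26%. In that fit Fbxo15 (0.39), Nanog (0.41), Zfp42 (0.47) and Fgf4 (0.24) rose after recombination without 4-OHT, beside 3.38%. Fgf4 was also higher in clone 2 than in clone 1 in that fit (0.22, beside 3.25%). Fbxo15 fell with 4-OHT in recombined cells in that fit (-0.39, beside 0.145%). The part of these markers in the Rhox5 result was not tested.

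The profiles most like Rhox5 over the 11 group means, among 1162 probe sets with 1 gene symbol and an SD of group means of at least 0.2, were Ctnnal1 (r = 0.934), Calml4 (0.932), Grsf1 (0.884), Enah (0.882) and Rimklb (0.869). Of these 5, 3 were also among the 5 highest without array 2 (Ctnnal1, Calml4 and Grsf1). The most opposed were Usp17la (-0.935), Tcstv1 (-0.911), known from cleavage-stage embryos, and Gm20767 (-0.857). The profiles most like Dnmt1 were Pfkl (0.926), Ehmt2 (0.864), Gtf2i (0.810), Ptov1 (0.809) and Tpi1 (0.796). Those most like Uhrf1 were Gstp1 (0.836), Eif2b5 in both its probe sets (0.833 and 0.775), Csrp2 (0.822) and Dnajb6 (0.775). Those most like Dnmt3a were Ptpn13 (0.831), Upp1 (0.763), Ppox (0.717), Rreb1 (0.716) and Cadm1 (0.685). The SD of group means was 0.09 for Dnmt1, 0.14 for Uhrf1 and 0.19 for Dnmt3a, each below the 0.2 asked of the other profiles. With all arrays none of these genes passed the test over the 11 groups, so their group profiles were not beyond the spread of arrays. Without array 2, 1 of the 5 named for Dnmt1 and 0 of those for Uhrf1 and Dnmt3a were still among the 5 highest. These correlations describe 11 points that share arrays and lines.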

How the data were processed

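Single-channel MG-U74Av2 arrays of mouse ES cells were read from the deposited table, whose values are linear intensities that the authors made with RMA, per the submitters' processing notes. RMA corrects background, normalises arrays by quantiles and summarises probes, and its version, settings and the arrays normalised together are not given in the sources used here. Array medians were 106 to 112. Sequencing depth does not apply, and precision is set by how many arrays a group has.

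Intensities were converted to log2. Of 12488 probe sets, 66 controls were left out. The platform table gave 10833 probe sets 1 gene symbol, 396 several and 1193 none. Of 44 arrays, 40 were grouped by title, and 4 with contradictory titles were left out. One model over the 11 groups was fitted with lmFit and eBayes of limma 3.58.1 in R 4.3.3 (29 residual degrees of freedom), two-sided, with Benjamini-Hochberg adjustment over 12422 probe sets and a threshold of 0.05. The fit was tested on simulated data. Tables and figures used Python 3.11.15, pandas 2.3.3 and matplotlib 3.10.9.

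All probe sets of the 5 genes are reported. From each gene list, and in each comparison, up to 4 called genes were eligible for naming by lowest p, or up to 2 as values. Each listed gene was represented by its brightest probe set. For each gene the 5 most similar and 3 most opposed profiles were ranked, and the text gives a selection. The members and lists were chosen with earlier results of these data known.

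Alternatives were array centring, quantile normalisation, a filter on the dimmest 25% of probe sets, trended robust variance, array weights, the β-actin ratio as a covariate, a replicate block, a threshold of 0.01, only the groups compared, and each array left out. Fits of each clone alone, with and without array 2, were added after seeing the data.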

Additional observations from a re-analysis of the deposited data

Results flagged for a closer look

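Array 2 of the unrecombined Hex group lay far below the other 3 arrays of its group for Rhox5 (6.94), for Dnmt3a at 100479_at (7.78) and for Dnmt1 at 161601_i_at (5.63), all log2 intensities. For an outlying array, 36 sets of arrays were examined (groups of 4 or 5 arrays for each of the 6 probe sets). These 3 stood out, all of them on that array. If the sets were independent, chance alone would mark about 1 in 20. They are not independent, because the 6 probe sets were read on the same arrays and array 2 was unlike the others as a whole.

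The response of Rhox5 to recombination without 4-OHT differed between the HexERTVP2 clones by 0.75 on the log2 scale (clone 2 minus clone 1) when array 2 of unrecombined Hex was left out (adjusted p = 0.00114). With all 40 arrays the same difference had an adjusted p of 0.413.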

How the results depend on the processing

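Precision is limited by 3 to 5 arrays a group, by array 2 of unrecombined Hex, which widens the spread shared by all groups, and by the β-actin ratio, which moves with Dnmt1, Dnmt3a and Uhrf1. Calls of Rhox5 did not rest on single arrays where they were made with all 40: it was called in 40 of 40 fits with an array left out for any difference among the groups, in 29 of 29 for clone 2 against clone 1, in 9 of 9 for recombined Hex, 8 of 8 for unrecombined Hex and 8 of 8 for unrecombined clone 2 against wild type. Median centring, quantile normalisation, the filter on dim probe sets, trended robust variance and a threshold of 0.01 left the count of called probe sets, of 6, as it was in each comparison.

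Other settings moved that count. The share of all probe sets called with weights, with the covariate or with only the groups compared is not given here. A higher count is therefore not a result about these genes. Leaving out array 2 alone raised that share from 5.17% to 12.9% in the test over the 11 groups. For any difference among the 11 groups the count was 1 with all arrays, 4 with array weights, 2 with the β-actin covariate, 4 with the covariate and without array 2, and 1 to 2 with an array left out. For recombined against unrecombined Hex it was 0, then 2 with weights, 4 with the covariate and without array 2, and 0 to 2 with an array left out. For unrecombined Hex against wild type it was 1, then 4 with weights, 3 with the covariate and without array 2, 0 with only the groups compared, and 1 to 2 with an array left out. For recombination without 4-OHT it was 0, then 1 with weights, 1 in clone 1 alone without array 2 (Dnmt3a) and 1 in clone 2 alone without it (Rhox5). For recombination with 4-OHT it was 0, then 2 with weights, 1 with the covariate and without array 2, 1 in clone 2 alone without array 2, and 0 to 1 with an array left out. For unrecombined clone 1 against wild type it was 0, then 1 with weights, 1 with the covariate and without array 2, 1 with only the groups compared, and 0 to 1 with an array left out. For unrecombined clone 2 against wild type it was 1, then 2 with the covariate and without array 2. For the clone difference in the response to recombination it was 0, then 2 with weights, 2 with the covariate and without array 2, and 0 to 1 with an array left out. The upper end of each of these ranges came from leaving out array 2.

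Some log2 changes turned sign, none of them called with all arrays. For recombined against unrecombined Hex, leaving out an array gave -0.32 to 0.072 for Dnmt1, -0.36 to 0.34 for Uhrf1 and -0.37 to 0.12 for Rhox5, and Uhrf1 was at -0.34 with weights, -0.10 with the covariate and -0.40 with the covariate and without array 2. For unrecombined Hex against wild type, Dnmt1 (101445_at) ran from -0.10 to 0.30 and 161601_i_at was at 0.21 with weights and 0.18 without array 2, with or without the covariate. For recombination without 4-OHT, Dnmt3a was at 0.048 with the covariate and 0.21 in clone 2 alone, and Rhox5 at -0.15 in clone 1 alone, or -0.087 with 4-OHT. The cause was not tested, beyond the arrays left out by construction.

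Replicate numbers in the titles were not used as pairs in the main fit. Over 173 pairs of same-numbered arrays the correlation of deviations from group means ran from -0.70 to 0.85 with a median of 0.12, and 88 were above 0.1. Pairs with different numbers were not read for reference, so these values do not tell whether the numbers mark a shared batch. With the number as a block, the change of Rhox5 was -1.01 for clone 2 against clone 1, -1.20 for recombined Hex, -1.18 for unrecombined Hex and -1.80 for unrecombined clone 2 against wild type, and no count of called probe sets moved.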

Other observations

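The 4 arrays whose titles contradict themselves were compared with nothing, and their log2 intensities are given by the words and the code in each title. The array worded as unrecombined clone 2 with 4-OHT, whose code names clone 1, read 8.70 for Rhox5, 8.79 for Dnmt1, 8.41 for Dnmt3a and 8.23 for Uhrf1. The array worded as unrecombined clone 2 without 4-OHT, whose code adds 4-OHT, read 7.27, 9.31, 8.57 and 8.63 for the same genes in that order. The array worded as recombined clone 1 with 4-OHT, whose code names clone 2 without the drug, read 8.13, 8.88, 8.54 and 8.71. The other array worded as recombined clone 1 with 4-OHT, whose code names clone 2 with the drug, read 8.03, 9.08, 8.50 and 8.84.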
